A study of Mus musculus with 6 samples.

Results

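Transcripts of red cells and platelets were followed in the fat of NOD mice, which become diabetic through autoimmunity. The 7 genes were taken by name, out of 13043 genes tested. Of these, 4 belong to red cells (Hbb-b2, Hba-a2, Slc4a1 and Alas2) and 3 to platelets (Ppbp, Pf4 and Gp9). Each gene was represented by its probe set with the highest mean signal over all arrays. Total RNA was measured on 6 Affymetrix arrays, 2 per group, with signal as the deposited MAS5 intensity on a linear scale. The AAT-treated group had received alpha-1-antitrypsin (AAT), which inhibits proteases in serum, and its diabetes had reverted in a stable way without need of insulin. The diabetic group had blood glucose over 300 mg/dl on 3 days in a row. The normoglycemic group were females aged 10 weeks, and age and sex were labelled for that group alone. The labels leave unstated whether a group's 2 arrays stand for separate mice or for pools, so the p-values cover only the spread of these arrays, which may be technical.

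Mature red cells of mammals have no nucleus, but young ones, the reticulocytes, still carry messenger RNA, above all that of the globin chains of haemoglobin. Platelets are fragments of megakaryocytes and keep RNA for the proteins of their granules and surface. Both cell types reach adipose tissue in blood, so blood left in the vessels adds their transcripts to RNA of the tissue. In bulk RNA, fewer cells of a type and less RNA per cell cannot be told apart. The adipocyte markers Adipoq, Fabp4 and others were present, with a summed signal over 9 marker genes of 248805 and 342671 in AAT-treated, 244442 and 409398 in diabetic, and 548339 and 373894 in normoglycemic fat.

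The upstream sequences of 4 of the genes are shown to compare neighbours and near copies whose values are set side by side below. Ppbp and Pf4 are adjacent protein-coding genes on chromosome 5 whose windows begin 3917 bases apart, and both encode platelet chemokines. The upstream window of Hba-a2 is a near copy of that of Hba-a1. Alas2 represents haem synthesis. Each window holds 300 bases around the start of the gene, from RefSeq on the GRCm38.p6 build, plus strand, at chr5:90768268-90768567 for Ppbp, chr5:90772185-90772484 for Pf4, chr11:32296242-32296541 for Hba-a2 and chrX:150547167-150547466 for Alas2. Capitals mark the motif GATAA, the core bound by GATA factors, and the TATA box motif TATAAA, each searched on both strands.
Ppbp: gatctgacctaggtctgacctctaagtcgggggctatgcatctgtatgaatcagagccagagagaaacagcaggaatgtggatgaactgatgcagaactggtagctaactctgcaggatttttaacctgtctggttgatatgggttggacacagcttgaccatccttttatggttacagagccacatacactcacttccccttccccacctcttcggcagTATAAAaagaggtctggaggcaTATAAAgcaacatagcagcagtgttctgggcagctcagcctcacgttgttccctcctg
Pf4: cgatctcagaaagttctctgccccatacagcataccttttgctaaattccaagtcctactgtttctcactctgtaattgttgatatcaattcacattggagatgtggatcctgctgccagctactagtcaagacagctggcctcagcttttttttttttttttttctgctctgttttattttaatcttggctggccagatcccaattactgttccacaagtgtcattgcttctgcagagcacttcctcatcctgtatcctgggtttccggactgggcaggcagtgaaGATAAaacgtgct
Hba-a2: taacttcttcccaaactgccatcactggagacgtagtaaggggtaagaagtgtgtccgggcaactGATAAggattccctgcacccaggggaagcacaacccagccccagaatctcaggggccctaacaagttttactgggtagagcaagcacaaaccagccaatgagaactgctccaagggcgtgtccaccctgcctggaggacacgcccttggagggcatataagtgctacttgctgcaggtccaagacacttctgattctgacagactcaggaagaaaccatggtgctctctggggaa
Alas2: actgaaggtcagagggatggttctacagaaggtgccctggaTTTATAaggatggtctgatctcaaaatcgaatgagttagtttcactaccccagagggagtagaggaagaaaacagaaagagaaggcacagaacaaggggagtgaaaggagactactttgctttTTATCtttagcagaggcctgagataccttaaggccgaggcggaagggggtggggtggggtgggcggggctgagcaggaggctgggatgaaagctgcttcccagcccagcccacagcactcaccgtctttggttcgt

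Of the 7 genes, 5 matched an entry, and Hbb-b2 and Slc4a1 are not shown. GATAA stood once in the windows of Hba-a2, Alas2, Pf4 and Gp9 and not in that of Ppbp, while 25.4% of all 32851 windows of the same length hold it. It began 185 bases before the start in Hba-a2, 86 before it in Alas2, 43 before it in Gp9 and 37 past it in Pf4. Ppbp had the TATA motif at 30 and at 8 bases before its start, Alas2 had it once at 209 bases before, and 13.6% of all windows hold it. Both matches in Alas2 lie on the minus strand, so their capitals read as the reverse complement, and the 2 motifs shared no bases in these windows. CACCC, bound by Krueppel-like factors, was found in Hba-a2, Alas2 and Gp9 (57.5% of all windows), and AGGAAG, an Ets family motif, in Hba-a2, Alas2, Pf4 and Gp9 (35.4% of all windows), on either strand and without capitals here. The windows of Hba-a1 and Hba-a2 were identical over 297 of 297 bases once shifted by 3. A motif match is a description of the letters and not of binding.

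The arrays differed in technical measures, and the beta-actin ratio moved with the groups. Beta-actin control probe sets lie near either end of the transcript, and their 3'/5' ratio, which goes up as RNA is degraded, was 9.08 and 5.87 in AAT-treated, 15.2 and 15.5 in diabetic, and 3.63 and 4.30 in normoglycemic fat. The mean signal of 18 hybridisation-control probe sets, added in fixed amounts, varied within groups. It was 25158 and 86286 in AAT-treated, 26969 and 47942 in diabetic, and 128547 and 48494 in normoglycemic fat. On this measure the AAT-treated arrays overlapped both other groups. No pair of arrays held identical values. The part of these measures in the results below was not tested, and RNA quality and group cannot be told apart where they differ together.

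The 4 brightest globin probe sets had lower signals in diabetic than in normoglycemic fat, with AAT-treated fat between them, and none of these differences passed the test. The dim probe sets of Hbb-b2, Hba-a2 and Hba-a1 alone did not all share that order. Most of the globin signal lay in these 4, which the annotation assigns to several globin genes at once, so that no single gene can be named from them. They are reported beside the probe sets of the 7 genes because they are the bright globin measurements of the array, and they were chosen after their values were seen. Probe set 1417184_s_at, shared by the beta globin genes Hbb-bt, Hbb-bs, Hbb-b1 and Hbb-b2, had signals of 51003 and 60809 in AAT-treated, 31371 and 25372 in diabetic, and 114692 and 92406 in normoglycemic fat. The 3 groups did not overlap, and the diabetic arrays were the lowest.

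The other 3 shared probe sets are assigned to Hba-a1 and Hba-a2 together, which encode the alpha chain. Probe set 1417714_x_at had 74691 and 45219 in AAT-treated, 32643 and 25629 in diabetic, and 95354 and 126995 in normoglycemic fat. On 1428361_x_at the signals were 54708 and 80859 in AAT-treated, 41689 and 50606 in diabetic, and 145896 and 99158 in normoglycemic fat. For 1452757_s_at they were 51437 and 80854 in AAT-treated, 45493 and 42284 in diabetic, and 134905 and 91404 in normoglycemic fat. All 3 put every diabetic array below every AAT-treated one, and every AAT-treated one below every normoglycemic one.

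**Figure D1:**
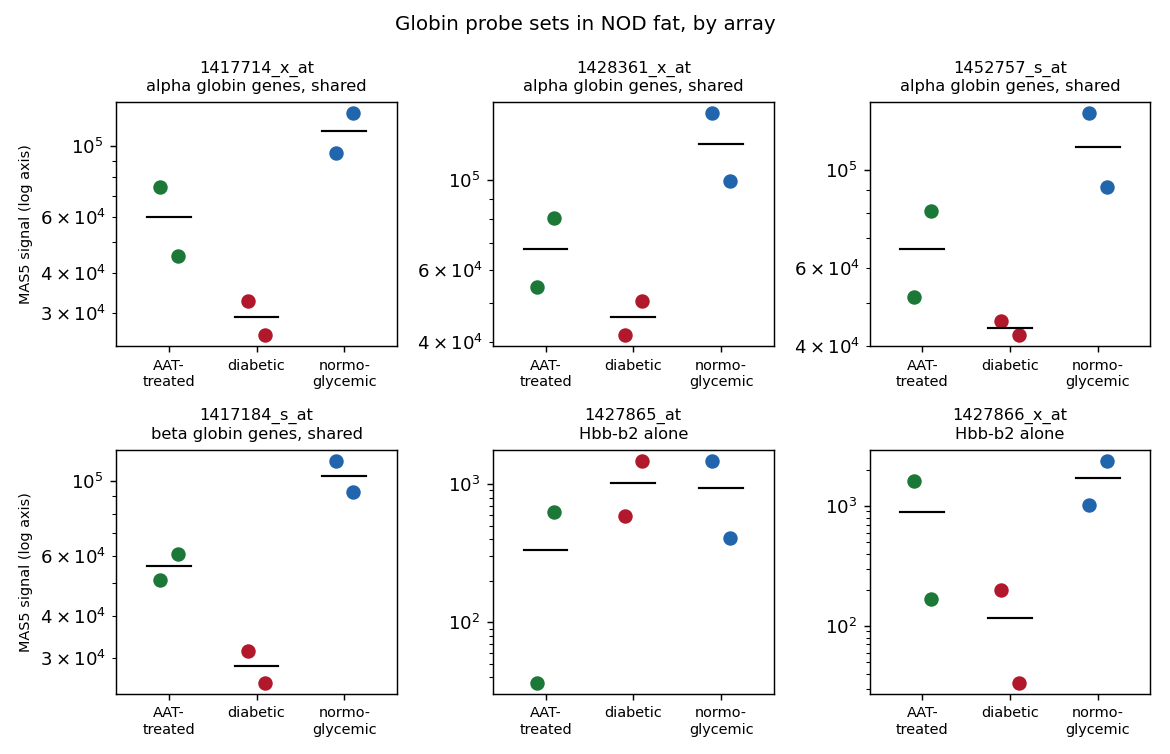
Signal (MAS5, log axis) of 6 globin probe sets on each of the 6 arrays, by group; points are arrays and bars are group means on the linear scale. The 4 shared probe sets order the groups alike with no overlap, while the 2 probe sets of Hbb-b2 alone are dimmer and disagree with each other.

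Tested with limma as features of their own among 22691 kept probe sets, the 4 shared globin probe sets were lower in diabetic than in normoglycemic fat by log2 differences of −1.92 to −1.34, with a median of −1.63 against −0.06 over all probe sets. The beta globin set differed by −1.86 ± 0.40 (SE, n = 2 arrays per group), and its 95% interval ran from −2.77 to −0.96. The adjusted p-values were 0.406 to 0.420, and none passed the threshold of 0.05, as was true of all 22691 probe sets (0%). In all 4, the diabetic arrays lay below the normoglycemic ones without overlap, which held for 25.4% of all probe sets in that direction. The alpha globin probe sets among these 4 share targets, and all 4 were read on the same arrays, so they are not independent measurements.

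AAT-treated fat held more shared globin signal than diabetic fat, with a median log2 difference of 0.77 that did not pass the test. The groups did not overlap in 4 of 4, against 18.3% of all probe sets in that direction, and the adjusted p-values by limma were 0.923 to 0.950. The beta globin set differed by 0.98 ± 0.40 (95% interval 0.07 to 1.89). Against normoglycemic fat, AAT-treated fat was lower by log2 differences of −0.92 to −0.78, again without overlap in 4 of 4, against 16.7% of all probe sets. In both comparisons with AAT-treated fat 0% of probe sets passed the adjusted threshold, and the comparisons share arrays, so they are not independent. With the beta-actin ratio as a covariate the 4 split. That ratio differed little within the diabetic and within the normoglycemic arrays, so its slope rests mostly on the 2 AAT-treated arrays. Values under this covariate are therefore extrapolations. In diabetic against normoglycemic fat 1428361_x_at and 1452757_s_at turned to 0.68 and 1.02, while 1417714_x_at stood at −4.26 and 1417184_s_at at −0.82. The first pair also turned in AAT-treated against diabetic fat, to −0.60 and −0.73, while 1417714_x_at stood at 2.28 and 1417184_s_at at 0.41.

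Hbb-b2, a beta globin chain, had its representative probe set 1427866_x_at at 1616 and 167 in AAT-treated, 200 and 33.6 in diabetic, and 1027 and 2384 in normoglycemic fat. Both diabetic arrays lay below both normoglycemic ones, but AAT-treated 1 sat among the normoglycemic arrays and AAT-treated 2 among the diabetic ones. The difference was −3.26 ± 0.87 in diabetic against normoglycemic fat (adjusted p = 0.458, limma) and 1.90 ± 0.87 in AAT-treated against diabetic fat (adjusted p = 0.962). That value was 0.49 without AAT-treated 1, 3.30 without AAT-treated 2 and 1.22 without diabetic 2. In AAT-treated against normoglycemic fat it was −1.36 ± 0.87, with −2.77 without AAT-treated 1, −0.79 without normoglycemic 2 and 0.04 without AAT-treated 2. The suffix x marks probe sets with probes that also match other sequences.

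The other probe set of Hbb-b2, 1427865_at, disagreed. Its signals were 36.7 and 632 in AAT-treated, 588 and 1458 in diabetic, and 1477 and 408 in normoglycemic fat, and all groups overlapped. It differed by 0.22 ± 0.87 in diabetic against normoglycemic fat and by −1.85 ± 0.87 in AAT-treated against diabetic fat. On AAT-treated 1 the representative probe set was near the top of its range and 1427865_at at its lowest. The pair therefore gives no single direction for this gene.

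Hba-a2, an alpha globin chain, had 1 probe set of its own, with 52.8 and 171 in AAT-treated, 221 and 92.5 in diabetic, and 346 and 236 in normoglycemic fat. Both normoglycemic arrays lay above the other 4. The differences were −0.70 ± 0.58 in diabetic against normoglycemic, −0.33 ± 0.58 in AAT-treated against diabetic, and −1.04 ± 0.58 in AAT-treated against normoglycemic fat. The first was −1.12 without diabetic 1, −0.29 without diabetic 2 and 2.41 with the beta-actin covariate. The second turned to 0.14 without AAT-treated 1 and to 0.08 without diabetic 1. Without the normoglycemic arrays its mean signal was 134, under the filter of 164.4, so the gene was tested through the group in which it was high. Hba-a1 alone had 1 probe set, which was under the filter.

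Slc4a1, the chloride and bicarbonate exchanger of the red cell membrane, separated all 3 groups by its representative probe set. Its signals were 815 and 359 in AAT-treated, 148 and 131 in diabetic, and 1146 and 1397 in normoglycemic fat. The diabetic arrays were lowest and the normoglycemic ones highest. Differences were −2.65 ± 0.41 in diabetic against normoglycemic (adjusted p = 0.283), 1.54 ± 0.41 in AAT-treated against diabetic (adjusted p = 0.743), and −1.11 ± 0.41 in AAT-treated against normoglycemic fat (adjusted p = 0.908), by limma. When each array was left out in turn the first spanned −2.79 to −2.52. The second was 1.02 without AAT-treated 1, and the last was −0.59 without AAT-treated 2.

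A further kept probe set of Slc4a1, 1434502_x_at, gave the same order of group means. It had 1165 and 283 in AAT-treated, 343 and 174 in diabetic, and 823 and 1169 in normoglycemic fat, with AAT-treated 2 inside the diabetic range. It differed by −1.72 ± 0.57 in diabetic against normoglycemic fat and by 1.05 ± 0.57 in AAT-treated against diabetic fat. In AAT-treated against normoglycemic fat it differed by −0.67 ± 0.57, with AAT-treated 1 inside the normoglycemic range. The third, 1431743_a_at, stayed at 83.6 or less on every array and was under the filter.

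Alas2 encodes the enzyme that starts haem synthesis in erythroid cells. It had 6304 and 1141 in AAT-treated, 676 and 968 in diabetic, and 1551 and 5371 in normoglycemic fat. The diabetic arrays were lowest, while the other groups overlapped because AAT-treated 1 and normoglycemic 2 were both several times above their group partners. Differences were −1.75 ± 0.79 in diabetic against normoglycemic (adjusted p = 0.512), 1.65 ± 0.79 in AAT-treated against diabetic (adjusted p = 0.962), and −0.10 ± 0.79 in AAT-treated against normoglycemic fat, by limma. With 1 array left out the first was −2.62 (without normoglycemic 1) or −0.88 (without normoglycemic 2) at its extremes, and the second 0.46 (without AAT-treated 1) or 2.85 (without AAT-treated 2). The last stood at 1.10 without AAT-treated 2 and 0.78 without normoglycemic 2.

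The same 2 arrays, AAT-treated 1 and normoglycemic 2, also held the highest summed signal of 12 blood vessel endothelium markers. That sum was 32819 and 7212 in AAT-treated, 21924 and 14678 in diabetic, and 4152 and 32942 in normoglycemic fat. All 12 markers were kept, and the groups overlapped in the sum. In diabetic against normoglycemic fat 11 of the 12 were higher, with a median of 0.58, and 0 passed by limma. The part of vessel content in the red cell values was not tested.

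Ppbp, a platelet granule chemokine precursor, had the largest difference of the 7 genes. It had 666 and 573 in AAT-treated, 174 and 31.0 in diabetic, and 2237 and 1362 in normoglycemic fat. No groups overlapped. It differed by −3.50 ± 0.47 in diabetic against normoglycemic fat, with a 95% interval of −4.57 to −2.43 and an adjusted p of 0.244 by limma. No gene had a smaller adjusted p in that comparison, but Ppbp ranked 2 of 13043 genes by unadjusted p and shared the value. In AAT-treated against diabetic fat it differed by 2.10 ± 0.47 (adjusted p = 0.600), and in AAT-treated against normoglycemic fat by −1.40 ± 0.47 (adjusted p = 0.890). Leaving out each array in turn gave −4.12 to −2.88 for the first and 1.48 to 2.72 for the second.

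Pf4 is the neighbour of Ppbp and another platelet chemokine. Its signals were 1504 and 1806 in AAT-treated, 1405 and 2032 in diabetic, and 3476 and 1634 in normoglycemic fat, and every pair of groups overlapped. The difference was −0.48 ± 0.41 in diabetic against normoglycemic fat, with a 95% interval of −1.42 to 0.46, with 0.05 without normoglycemic 1 and 1.25 with the beta-actin covariate. In AAT-treated against diabetic fat it was −0.04 ± 0.41, with an interval of −0.98 to 0.91. The intervals leave room for differences of nearly 1 log2 unit in either direction there.

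Gp9 encodes a subunit of the platelet receptor for von Willebrand factor. Its signals were 120 and 100.5 in AAT-treated, 51.1 and 159 in diabetic, and 302 and 257 in normoglycemic fat, with both normoglycemic arrays above the rest. Differences were −1.05 ± 0.56 in diabetic against normoglycemic (adjusted p = 0.562), 0.11 ± 0.56 in AAT-treated against diabetic and −0.94 ± 0.56 in AAT-treated against normoglycemic fat, by limma. The first was −0.60 without diabetic 1, and the second −0.34 without that array and 0.56 without diabetic 2. Its mean signal of 165.0 lay just over the filter, and without the normoglycemic arrays it was 108.

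**Figure D2:**
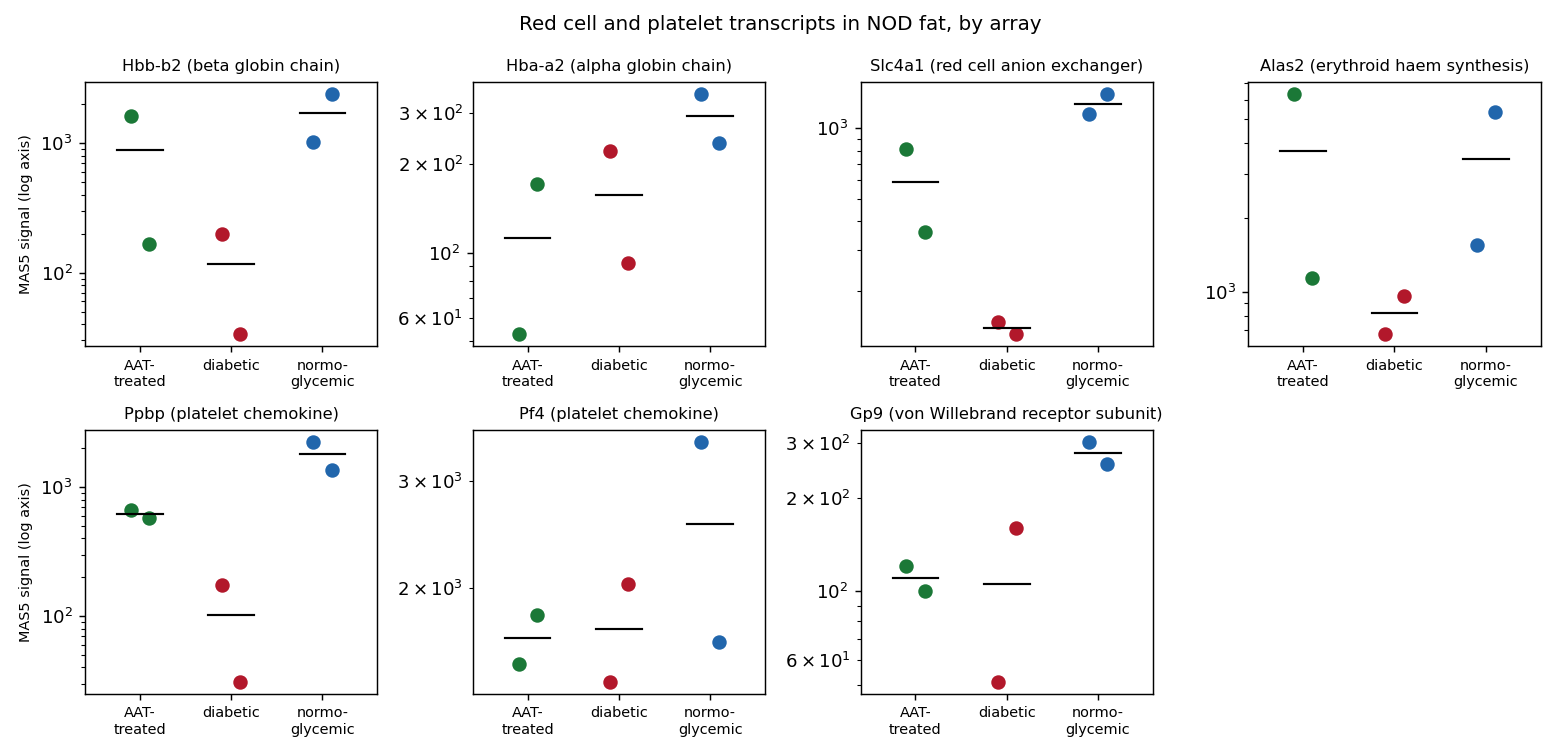
Signal (MAS5, log axis) of the 7 genes on each array, by group; points are arrays and bars are group means on the linear scale. By their representative probe sets, Slc4a1 and Ppbp separate the 3 groups, Alas2 and Hbb-b2 are split within the AAT-treated group, and Pf4 overlaps throughout.

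By their representative probe sets, all 7 genes had lower values in diabetic than in normoglycemic fat, with a median log2 difference of −1.75 against −0.06 over all 13043 genes, of which 53.6% were lower. None of the 7 passed the adjusted threshold by limma, and 0% of all genes did. At an unadjusted p under 0.05, 3 of 7 were lower (Hbb-b2, Slc4a1 and Ppbp), where 4.62% of all genes were. Hbb-b2 counts here by 1427866_x_at alone, and its other probe set stood at 0.22. The groups did not overlap in 6 of 7, against 24.5% of all genes in that direction, and 2 of those 6, Hba-a2 and Gp9, had passed the filter only through the normoglycemic arrays. Red cell genes had a median of −2.20 and platelet genes of −1.05. The platelet median is the value of Gp9, while Ppbp stood at −3.50 and Pf4 at −0.48. Without normoglycemic 2 the median of the 7 was −1.14, and without normoglycemic 1 it was −2.62, with 6 genes lower and 1 higher. With the beta-actin covariate 5 were lower and 2, Hba-a2 and Pf4, higher.

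In AAT-treated against diabetic fat, 5 of 7 genes were higher, with a median of 1.54 against 0.01 over all genes. The median was 1.60 over the red cell genes and 0.11 over the platelet genes, where Ppbp stood at 2.10, Gp9 at 0.11 and Pf4 at −0.04. By limma 0 of 7 passed, as did 0% of all genes, and 2 of 7 (Slc4a1 and Ppbp) were higher at an unadjusted p under 0.05, against 2.94% of all genes. The groups did not overlap in 3 of 7 (Slc4a1, Alas2 and Ppbp), against 17.9% of all genes. Slc4a1 counts here by its representative probe set alone, and on its probe set 1434502_x_at the groups overlapped, with a difference of 1.05. Without AAT-treated 1 the median was 0.46, and with the mean over all kept probe sets of each gene it was 0.11.

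In AAT-treated against normoglycemic fat, 7 of 7 had lower values, with a median of −1.04 against −0.03 over all genes. That median is the value of Hba-a2. Without AAT-treated 2 or with the beta-actin covariate, 5 were lower and 2 higher. Here too 0 of 7 and 0% of all genes passed by limma. At an unadjusted p under 0.05 there were 2 of 7 (Slc4a1 and Ppbp), against 1.72% of all genes, and the groups did not overlap in 4 of 7, against 16.1%. Of those 4, Hba-a2 and Gp9 had passed the filter only through the normoglycemic arrays, so their part in the count is no support for a difference. Slc4a1 counts by its representative probe set alone, and on 1434502_x_at the groups overlapped, with a difference of −0.67. Mean log2 levels were lowest in diabetic and highest in normoglycemic fat for Hbb-b2, Slc4a1, Alas2, Ppbp and Gp9. Within that order AAT-treated and normoglycemic arrays overlapped for Hbb-b2 and Alas2, and AAT-treated and diabetic arrays overlapped for Hbb-b2 and Gp9. These comparisons share the same arrays, so the values are given side by side only. The beta-actin ratio had the reverse order, and its part was not tested.

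**Figure D3:**
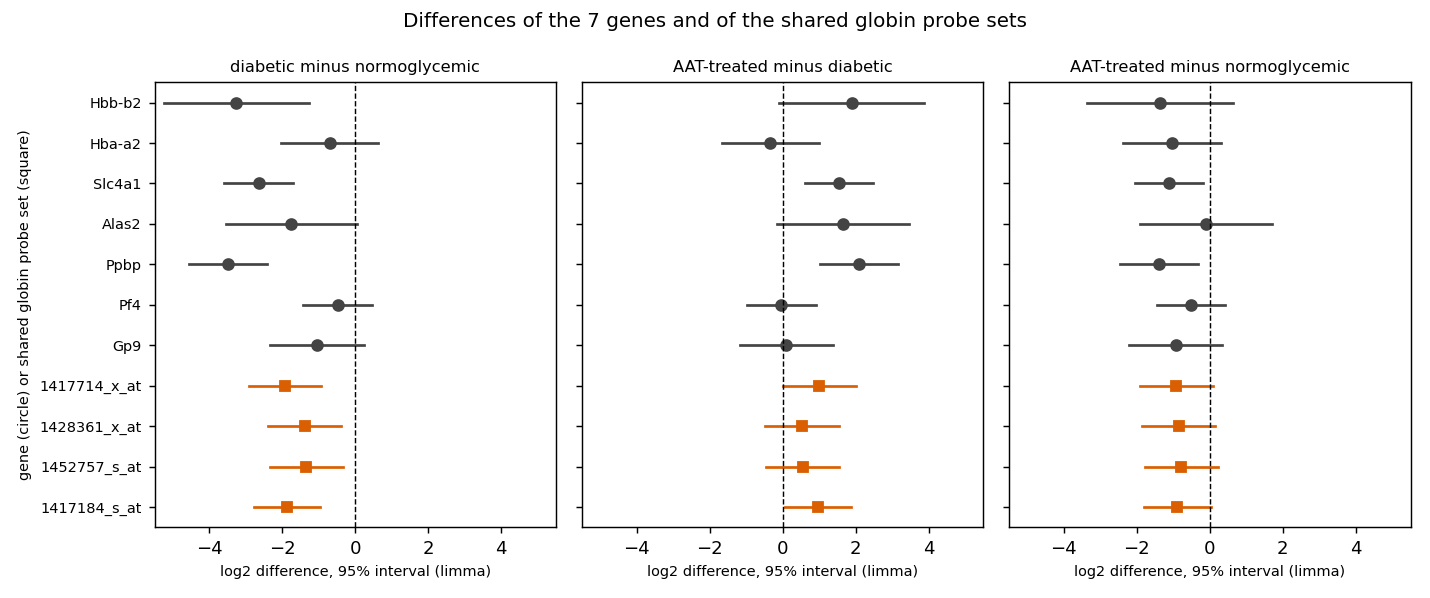
Log2 differences with 95% intervals from limma for the 7 genes (circles) and the 4 shared globin probe sets (squares), 1 panel per comparison, n = 2 arrays per group. In diabetic minus normoglycemic the intervals of Hbb-b2, Slc4a1, Ppbp and the 4 shared globin probe sets lie below 0; in AAT-treated minus diabetic those of Slc4a1, Ppbp, 1417714_x_at and 1417184_s_at lie above 0.

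The genes varied together to different degrees over the 6 arrays, as a description over points that share groups and arrays. On the log2 scale Slc4a1 correlated at 0.93 with Hbb-b2, 0.79 with Alas2 and 0.93 with Ppbp. With the mean of the 4 shared globin probe sets, Ppbp correlated at 0.96, Slc4a1 at 0.92, Gp9 at 0.77, Hbb-b2 at 0.75, Hba-a2 at 0.59, Pf4 at 0.55 and Alas2 at 0.49. The neighbours Ppbp and Pf4 correlated at 0.42, Pf4 and Hbb-b2 at 0.04, and Hba-a2 and Alas2 at −0.29. Of 7980 genes that spanned at least 1 log2 unit, Tmem140, Vnn1, Susd5, Ccndbp1 and Dok4 were most like the mean of the red cell genes, at 0.97, 0.96, 0.96, 0.95 and 0.94, and 23 exceeded 0.9. Arid3b, Med10, Polr2g, Lyplal1 and Akip1 were most like the mean of the platelet genes, at 0.99 for Arid3b and 0.98 to 0.99 for the rest, and 128 exceeded 0.9. Arid3b had 135 and 129 in AAT-treated, 68.0 and 41.5 in diabetic, and 564 and 328 in normoglycemic fat. Only its normoglycemic arrays lay over the filter of 164.4, so it passed through them alone, as did Gp9 within the platelet mean. Its place at the top is therefore no support for a likeness. None of these 10 is on the red cell or platelet lists.

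Other red cell genes were examined in lists of related genes, counted without the 7. Beside the list counts below, 53.6% of all genes were lower in diabetic than in normoglycemic fat. In AAT-treated against diabetic fat 48.8% of all genes were lower. Of 11 kept genes of the red cell membrane and cytosol, 7 were lower and 4 higher in diabetic than in normoglycemic fat, with a median of −0.71, and 0 passed by limma. Set against diabetic fat, AAT-treated fat had 8 of them higher and 3 lower, with a median of 0.20. Bpgm, which makes the bisphosphoglycerate that loosens oxygen from haemoglobin, had 2447 and 880.0 in AAT-treated, 473 and 451 in diabetic, and 992 and 3023 in normoglycemic fat. Its highest arrays were those of Alas2. It differed by −1.76 ± 0.59 in diabetic against normoglycemic and 1.53 ± 0.59 in AAT-treated against diabetic fat. The carbonic anhydrase gene Car2 differed by −1.61 ± 0.36 and 1.23 ± 0.36, and Trim10, a ring finger gene of erythroid cells, by −0.98 ± 0.39 and 0.38 ± 0.39, in the same comparisons.

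Most haem synthesis and iron genes stood higher in diabetic fat, unlike Alas2. Of 15 kept, 10 were higher and 5 lower in diabetic against normoglycemic fat, with a median of 0.26, and 0 passed by limma. Between AAT-treated and diabetic fat, 5 were higher and 10 lower in AAT-treated fat, with a median of −0.36. The enzymes on this list, which also holds transporters and receptors, serve haem synthesis in other cells too, unlike the erythroid form Alas2. The part of cell source in these directions was not tested. Fech, which inserts iron in the last step, had 8466 and 4203 in AAT-treated, 3692 and 3375 in diabetic, and 4642 and 7117 in normoglycemic fat. It differed by −0.69 ± 0.42 in diabetic against normoglycemic fat, and the mitochondrial iron importer Slc25a37 by −0.63 ± 0.65. The porphyrin transporter Abcb6 ran the other way, with 776 and 263 in AAT-treated, 1470 and 1377 in diabetic, and 354 and 479 in normoglycemic fat, a difference of 1.62 ± 0.45 in diabetic against normoglycemic fat.

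Of 7 kept transcription factors of both lineages, 5 were lower and 2 higher in diabetic against normoglycemic fat, with a median of −0.28 and 0 past the threshold by limma. Bcl11a, a repressor of fetal globin genes, differed by −0.79 ± 0.56, Tal1 by −0.48 ± 0.51 and Ldb1 by 0.33 ± 0.30. The mean signal of Bcl11a was 288 on normoglycemic arrays, against 147 on diabetic ones and 144 after AAT. Only the first of these lay over the filter of 164.4, so Bcl11a passed it through the normoglycemic arrays alone. Its place among the 5 lower genes is therefore no support for a difference. Globin genes other than the 7 had no kept probe set with a single symbol.

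Among 18 other platelet genes, 14 were lower and 4 higher in diabetic against normoglycemic fat, with a median of −0.45, and 0 passed by limma. Clec1b, the platelet receptor for podoplanin, had 243 and 120 in AAT-treated, 323 and 14.6 in diabetic, and 765 and 656 in normoglycemic fat. Its normoglycemic arrays were above the rest, and it differed by −2.06 ± 0.68 in diabetic against normoglycemic fat. Rgs18, a regulator of G protein signalling in platelets, differed by −1.10 ± 0.46, and Selp, an adhesion receptor of platelets and endothelium, by 1.07 ± 0.70. AAT-treated fat had 13 of the 18 higher and 5 lower than diabetic fat, with a median of 0.24, and 0 passed. Over these lists the medians were nearer to 0 than those of the 7 genes, which were named with earlier results known.

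**Figure D4:**
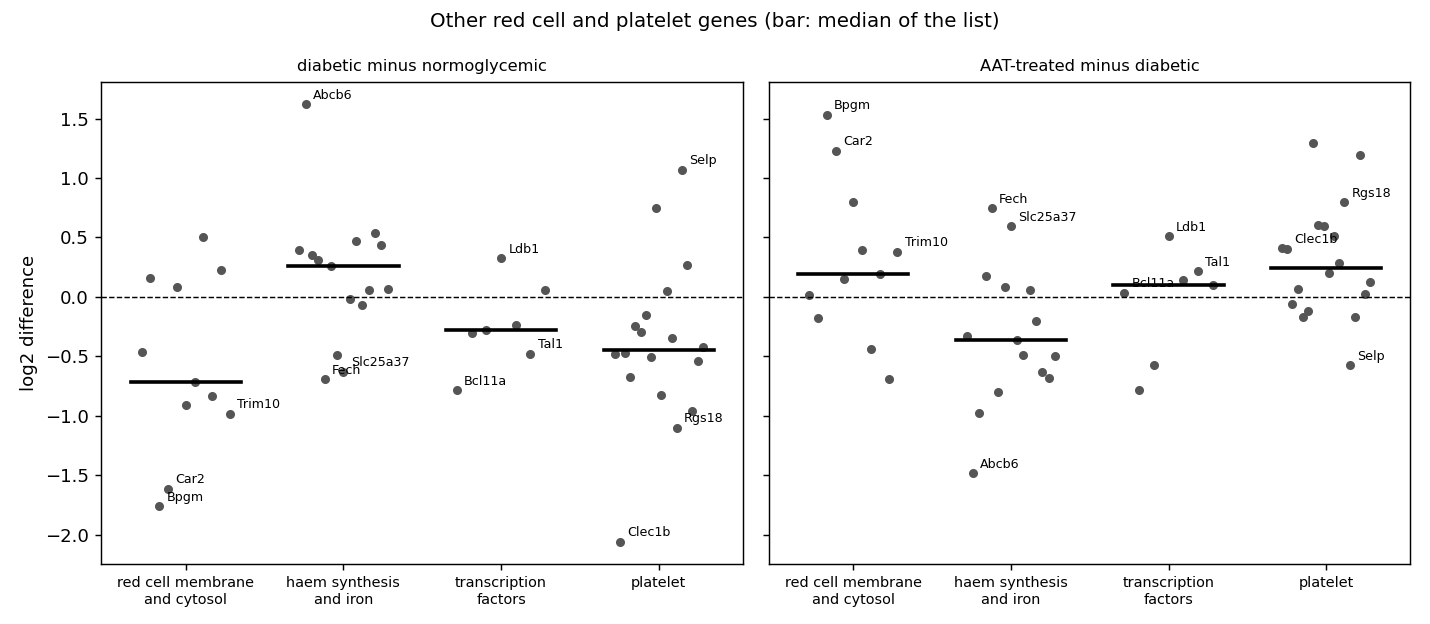
Log2 differences of the other kept red cell and platelet genes in 2 comparisons, by list; each point is a gene, bars are list medians, and the 3 genes named per list are labelled. In diabetic minus normoglycemic the medians are −0.71, 0.26, −0.28 and −0.45; in AAT-treated minus diabetic they are 0.20, −0.36, 0.10 and 0.24.

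Markers of other blood cells were mostly dim. Of 11 circulating lymphocyte markers 1, Ms4a1, was kept. Of 12 neutrophil markers 6 were kept, and their summed signal was 792 and 1545 in AAT-treated, 1475 and 1253 in diabetic, and 2686 and 1024 in normoglycemic fat, with overlap between all groups. The 6 kept monocyte markers summed to 7301 and 8698 in AAT-treated, 8699 and 10066 in diabetic, and 5636 and 3652 in normoglycemic fat. Csf1r made up most of the diabetic sums, and by gene 3 of the 6 were higher and 3 lower in diabetic against normoglycemic fat. Several of the monocyte markers are also expressed by tissue macrophages. Markers of dividing erythroid precursors, 6 of 9 kept, summed to 2086 and 2120 in AAT-treated, 3036 and 2733 in diabetic, and 2931 and 3125 in normoglycemic fat.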

How the data were processed

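Signals were deposited by the authors as intensities on a linear scale, from 45101 probe sets on 6 arrays. The submitters' processing notes name MAS5, with no version stated there. MAS5 subtracts background and scales each array. A mean trimmed by 2% at either end was 500.0 on every array, so no further scaling was applied. Array medians spanned 175.7 to 272. Precision is limited by how few arrays there are. Probe sets were named by the platform annotation, checked against RefSeq (0 symbols changed): 34945 probe sets had 1 symbol, 932 several and 9160 none, besides 64 controls. Only probe sets with 1 symbol stand for a gene.

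Values were log2(signal + 74), 74 being the 25th percentile of all deposited signals, which understates differences of dim genes. Probe sets with a mean over 164.4, the 40th percentile, were kept (22075), and the brightest stood for each of 13043 genes. The test was limma 3.58.1 under R 4.3.3, 2-sided, with 3 group means fitted to the 6 arrays together. It used eBayes with an intensity trend and Benjamini-Hochberg over all genes, with 3 residual and 5.36 prior degrees of freedom. A run on simulated data checked that the fit returns added differences. Its noise was independent between genes, so it does not cover shared noise or RNA quality in the real arrays. Values after ± are standard errors of the limma fit to the 6 arrays unless named otherwise. With 2 arrays against 2, no exact permutation p can be under 0.333, and that test was left out.

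The genes named were the 7 members, per related list the 3 kept genes with the largest absolute difference between diabetic and normoglycemic fat, and per cell type the 5 genes most correlated with its members. The members and all lists were chosen with earlier results of these data known, and the shared globin probe sets were added after their values were seen. Alternatives covered pseudocount, filter, normalization, probe set choice, variance model, covariates, replicate number and each array left out.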

Additional observations from a re-analysis of the deposited data

How the results depend on the processing

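With 2 arrays per group, the limits are the spread between arrays and the dimness of Hba-a2 and Gp9. The number of genes past the threshold was 0 in every comparison, and became 1 in diabetic against normoglycemic and 1 in AAT-treated against diabetic fat with the hybridisation-control signal as a covariate, 1 in AAT-treated against diabetic fat with no filter, and 0 to 3 in AAT-treated against normoglycemic fat with each array left out (3 without normoglycemic 2). Under the hybridisation covariate Hbb-b2 differed by −4.77 in diabetic against normoglycemic fat (adjusted p = 0.0424, limma). That value rests on its representative probe set alone, and its other probe set stood at 0.22 without the covariate. Under the same covariate the bright shared beta globin probe set 1417184_s_at differed by −1.74 and did not pass (adjusted p = 0.661, limma). The beta globin probe sets thus do not share a call. The cause of the change in Hbb-b2 was not tested.

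The median of the 7 genes in diabetic against normoglycemic fat (−1.75) was −2.65 with the filter at the 60th percentile, which leaves 5 of the genes, −2.98 with the hybridisation covariate, −3.15 with the beta-actin ratio as a covariate and −2.62 to −1.14 with each array left out. In AAT-treated against diabetic fat (1.54) it was 0.11 with the mean over kept probe sets, 1.91 with the beta-actin covariate and 0.46 to 2.06 with each array left out, and in AAT-treated against normoglycemic fat (−1.04) −1.29 to −0.64.

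The beta-actin covariate moved the median of all genes to 0.32 in diabetic against normoglycemic, −0.14 in AAT-treated against diabetic and 0.18 in AAT-treated against normoglycemic fat. In diabetic against normoglycemic fat it put Hbb-b2 at −11.9, Alas2 at −10.1 and Slc4a1 at −5.72. In AAT-treated against diabetic fat it put them at 6.60, 6.21 and 3.22, in AAT-treated against normoglycemic fat at −5.28, −3.88 and −2.51. The ratio was 15.2 and 15.5 in diabetic and 3.63 and 4.30 in normoglycemic fat. Its slope thus rests mostly on the AAT-treated arrays (9.08 and 5.87). Hbb-b2 spanned 70.9-fold in signal over the 6 arrays, so its −11.9 lies outside the data. Values under this covariate are extrapolations and not estimates of a difference. Directions turned for Hba-a2 (2.41) and Pf4 (1.25) in diabetic against normoglycemic fat and for Hba-a2 (0.38) and Pf4 (0.27) in AAT-treated against normoglycemic fat. Under it, 1428361_x_at and 1452757_s_at stood at 0.68 and 1.02 in diabetic against normoglycemic, −0.60 and −0.73 in AAT-treated against diabetic, and 0.0845 and 0.29 in AAT-treated against normoglycemic fat. Scaling arrays to the same median put Pf4 at 0.0115 in AAT-treated against diabetic and Alas2 at 0.0895 in AAT-treated against normoglycemic fat; it moved the median of all genes to 0.07 in diabetic against normoglycemic and 0.14 in AAT-treated against normoglycemic fat. With each array left out, Pf4 ranged from −1.01 to 0.0475 in diabetic against normoglycemic, −0.29 to 0.22 in AAT-treated against diabetic and −1.04 to 0.0123 in AAT-treated against normoglycemic fat. In AAT-treated against diabetic fat Hba-a2 ranged from −0.81 to 0.14 and Gp9 from −0.34 to 0.56, and in AAT-treated against normoglycemic fat Hbb-b2 ranged from −2.77 to 0.0391 and Alas2 from −1.29 to 1.10. With the replicate number as a block, 0 genes passed in each comparison and the medians of the 7 were −1.75, 1.54 and −1.04, so no call changed. Same-numbered arrays deviated together at 0.08, −0.12 and −0.51 in the 3 comparisons, so the numbers gave no sign of a pairing. The −0.51, in AAT-treated against normoglycemic fat, means that AAT-treated 1 deviated along with normoglycemic 2. The cause of that was not tested.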
